A study of Mus musculus with 38 samples.

Results

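CC chemokines are small secreted proteins, named for a pair of adjacent cysteines, that bind G protein-coupled receptors on leukocytes and direct their movement into tissue. The genes described here are those best known for acting on monocytes, macrophages and their relatives. Ccl2, Ccl7, Ccl8 and Ccl12 are the monocyte chemoattractant proteins, and Ccl2, Ccl7 and Ccl12 act through the receptor Ccr2. Ccl3 and Ccl4 are the macrophage inflammatory proteins 1-alpha and 1-beta, and Ccl5 attracts T cells as well as monocytes. Ccl6 and Ccl9 are ligands of Ccr1, and Ccl17 is a ligand of Ccr4 made mainly by dendritic cells and activated macrophages. In mammary tumours such chemokines are known for the recruitment of macrophages, and macrophages and neutrophils are themselves major sources of several of them.

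The genes were chosen as every non-control probe whose gene name in the scanner files was one of 10 names, Ccl2, Ccl3, Ccl4, Ccl5, Ccl6, Ccl7, Ccl8, Ccl9, Ccl12 and Ccl17. This gave 10 of 28786 genes, 12 of 41174 probes and 21 of 43379 non-control spots. Ccl2 had 10 spots of the same probe, Ccl5 and Ccl7 had 2 probes each, and the other genes had 1 spot. 9 of the genes lie on chromosome 11 of the array's build, mm7, and Ccl17 lies on chromosome 8. By the RefSeq gene order, Ccl2, Ccl7, Ccl12 and Ccl8 form a cluster with Ccl11 and Ccl1, and Ccl5, Ccl9, Ccl6, Ccl3 and Ccl4 follow each other in another. The probes of the first cluster span chr11:82118723-82198240 and those of the second chr11:83595699-83734514.

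The arrays came from a transplant model of breast cancer, in which hyperplasias of mice with the MMTV-PyMT oncogene and GFP under an actin promoter were placed in cleared mammary fat pads of wild-type FVB/n females. The MMTV promoter drives the polyoma middle T antigen mainly in mammary epithelium, whereas the actin promoter marks all donor cells, and the study's methods state that GFP-positive cells were sorted before RNA was made. In the chemotherapy experiment, 6 tumors were untreated, 6 were residual tumors taken 10 days after dose 1, and 4 were relapsed tumors taken 10 days after dose 4, of doxorubicin at 5, docetaxel at 25 and cyclophosphamide at 120 mg/kg given every 21 days from 8 weeks after transplantation. In the labels the residual group is called regressed and the relapsed group resistant. In the progression experiment, 5 samples were adenomas of 5-week outgrowths, 6 were carcinomas of 18-week outgrowths, 6 were disseminated cells from lungs of mice with 18-week outgrowths, pooled over several mice per sample, and 5 were lung metastases that grew after the primary tumor had been removed. Cy5 labelled the sample and Cy3 a universal mouse reference RNA on all 38 arrays, without dye swap, so each value is a log2 ratio of sample to the same reference, and values of different probes were not set against each other. Nothing in the labels says that arrays of a group came from separate animals, so p-values measure the spread between these samples.

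On the 22 progression arrays the sample channel of every member was well above background, and on the 16 chemotherapy arrays this failed only for Ccl12 in residual replicate 4 and for Ccl17 in relapsed replicate 3. 0 of the 38 arrays had a saturated member spot. Of the spots of Ccl2, 8 to 10 per array were kept in the chemotherapy experiment and 7 to 10 in the progression experiment. They differed within an array by a median SD of 0.0534 and 0.0394 on the log2 scale in these experiments. The SD was highest in metastases replicate 4 (0.326), carcinoma replicate 6 (0.309) and metastases replicate 5 (0.221).

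Some arrays stood apart from their groups. Over all genes, carcinoma replicate 6 correlated with the rest of its group at a median of 0.760, whereas the other 5 carcinomas lay between 0.939 and 0.959. The mean log2 ratio of the 10 chemokines was 5.71 in that sample and between 0.10 and 1.40 in the other 5. Disseminated replicate 6 also correlated weakly with its group (median 0.71), and its chemokine mean of 3.03 was the lowest of the 6 disseminated samples. Disseminated replicate 4 and metastases replicate 4 each had a median of 0.776. The chemokine mean of metastases replicate 4, 5.98, was the highest of all arrays. The marker genes of mammary epithelium gave mean log2 ratios of 3.15 to 3.75 in adenomas and 0.51 to 3.71 in disseminated cells, with the lowest values in disseminated replicates 3 (0.51) and 5 (0.97). Metastases replicate 4 had 0.68 where the other 4 metastases had 3.57 to 4.70.

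In the progression samples the macrophage inflammatory proteins Ccl3 and Ccl4 and the Ccr1 ligands Ccl6 and Ccl9 were higher in disseminated cells than in adenomas and carcinomas, and higher in metastases than in adenomas. Ccl17 was higher in disseminated cells than in adenomas, and Ccl6 was already higher in carcinomas than in adenomas. A gene was called at a Benjamini-Hochberg adjusted p below 0.05 over all genes and a change of at least 2-fold, in limma. No member was called lower in any of the 6 progression comparisons, which share groups and are therefore not independent of each other.

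**Figure D1:**
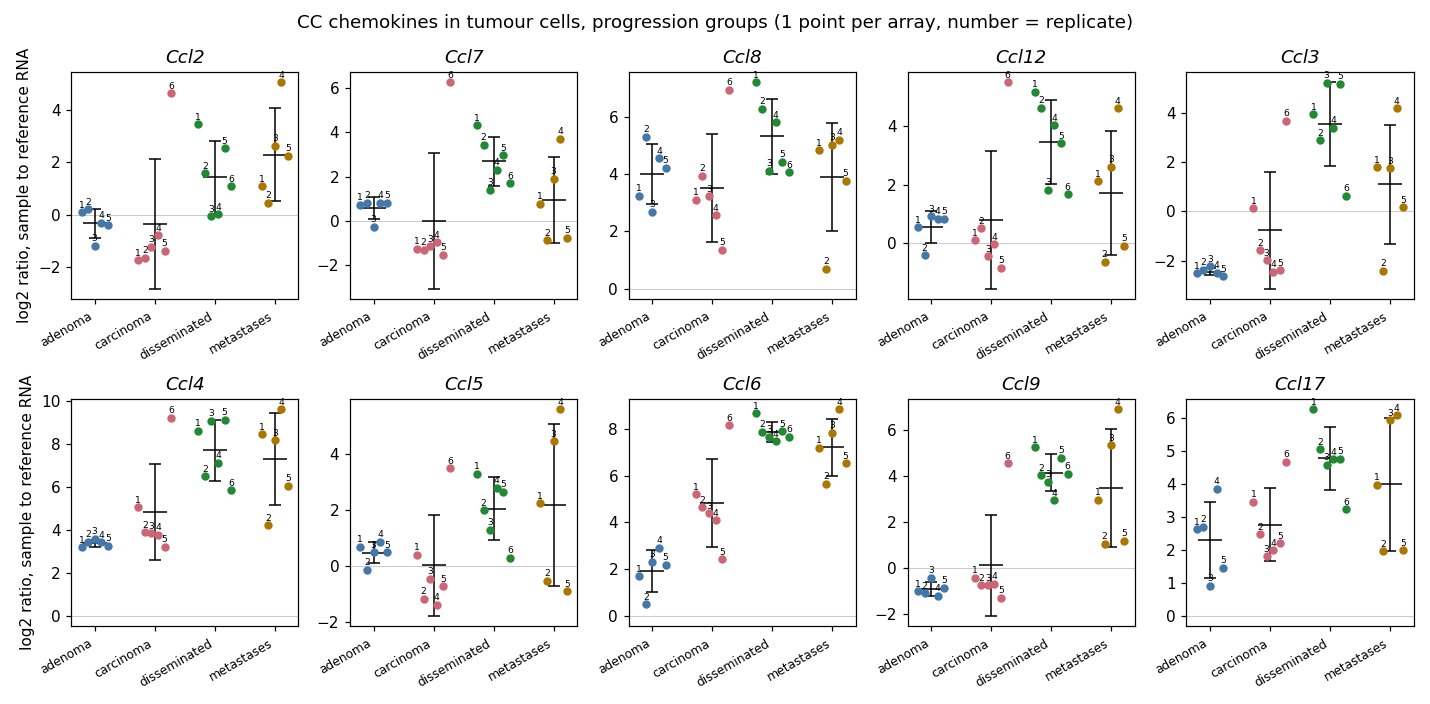
The panels plot the log2 ratio of sample to reference RNA on the vertical axis, with its own range in each panel, for each CC chemokine in adenoma, carcinoma, disseminated and metastases samples. Points are arrays numbered by replicate, and bars are the mean and SD. Carcinoma replicate 6 lies above the other 5 carcinomas in all 10 panels, and the disseminated samples of Ccl3, Ccl4, Ccl6 and Ccl9 lie above all adenomas.

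Between disseminated cells and adenomas 5 of the 10 members were called, all 5 higher, where 10.5% of all genes were called and 4.65% were called higher. All 10 had a higher mean in disseminated cells. For 6 members, Ccl3, Ccl4, Ccl6, Ccl7, Ccl9 and Ccl12, every disseminated sample lay above every adenoma, which held for 4.23% of all genes. The median log2 change of the 10 members was 2.69, against -0.01 over all genes.

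Ccl3, a chemoattractant of monocytes and macrophages, had log2 ratios of -2.51, -2.36, -2.22, -2.49 and -2.62 in the 5 adenomas. In the 6 disseminated samples its lowest value was 0.64, the median 3.66 and the highest 5.21. The groups did not overlap, and the adenomas spanned less than the disseminated samples. Ccl3 rose by 5.97 on the log2 scale (standard error 1.11, adjusted p = 0.00169), or 62.9-fold.

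Ccl4, its neighbour on the chromosome, had log2 ratios of 3.19, 3.45, 3.60, 3.44 and 3.28 in adenomas, and a lowest, median and highest value of 5.87, 7.88 and 9.15 in disseminated cells. All disseminated samples were again above all adenomas. Ccl4 rose by 4.33 on the log2 scale (standard error 0.997, adjusted p = 0.00565), or 20.2-fold.

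Ccl6, a Ccr1 ligand expressed by myeloid cells, had log2 ratios of 1.69, 0.50, 2.32, 2.91 and 2.20 in adenomas and between 7.47 and 8.67 in disseminated cells, with a median of 7.77. The disseminated samples were close together and far from the adenomas. Ccl6 rose by 5.95 on the log2 scale (standard error 0.72, adjusted p = 5.745e-05), or 61.7-fold, with the smallest p of the 10 members.

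Ccl9, also a Ccr1 ligand, had log2 ratios of -0.997, -1.09, -0.42, -1.19 and -0.85 in adenomas, and 2.95, 4.07 and 5.26 as the lowest, median and highest value in disseminated cells. No disseminated sample came near the adenomas. The gene rose by 5.05 on the log2 scale (standard error 1.001, adjusted p = 0.00245), or 33.2-fold.

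Ccl3, Ccl6 and Ccl9, which were called together in disseminated cells against adenomas and carcinomas and in metastases against adenomas and lie in the same gene cluster, are shown with the 250 bases before their RefSeq start, 5′ to 3′. Capitals mark each TATAAA, on either strand, and the longest run of letters that the Ccl6 and Ccl9 windows share in the same orientation, 13 bases long. The Ccl3 window holds neither.
Ccl3, GRCm38.p6 chr11:83649379-83649628, minus strand: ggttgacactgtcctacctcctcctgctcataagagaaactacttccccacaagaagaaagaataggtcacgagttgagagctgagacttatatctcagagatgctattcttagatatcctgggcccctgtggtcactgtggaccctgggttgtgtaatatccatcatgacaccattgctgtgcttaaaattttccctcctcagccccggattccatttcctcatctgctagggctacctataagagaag
Ccl6, GRCm38.p6 chr11:83593088-83593337, minus strand: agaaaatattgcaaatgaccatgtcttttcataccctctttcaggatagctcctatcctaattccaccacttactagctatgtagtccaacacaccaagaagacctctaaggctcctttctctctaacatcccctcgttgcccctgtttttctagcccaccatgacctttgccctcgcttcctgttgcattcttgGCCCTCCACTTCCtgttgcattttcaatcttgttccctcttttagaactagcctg
Ccl9, GRCm38.p6 chr11:83578637-83578886, minus strand: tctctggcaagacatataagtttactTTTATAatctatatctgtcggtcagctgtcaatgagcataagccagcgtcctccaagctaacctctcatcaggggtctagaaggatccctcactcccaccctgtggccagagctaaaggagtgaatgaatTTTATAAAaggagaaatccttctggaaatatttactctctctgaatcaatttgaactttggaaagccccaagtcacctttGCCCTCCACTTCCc

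Of the 10 members, 6 matched a promoter in the RefSeq table, Ccl3, Ccl6, Ccl8, Ccl9, Ccl12 and Ccl17. The shared run began 55 bases before the start of Ccl6 and 14 bases before that of Ccl9. Among these windows TATAAA, searched on both strands, stood in 3 of 6, namely Ccl8, Ccl9 and Ccl12, against 12.4% of 32851 windows of the same length. In Ccl8 and Ccl12 it began 32 and 31 bases before the start. The AP-1 letters TGANTCA stood in Ccl9 (6.75% of all windows), the kappaB motif, the binding site of NF-kB, in Ccl9 (7.25%), the gamma-activated site TTCNNNGAA in Ccl17 (7.02%) and the PU.1 core GAGGAAG in Ccl8 (10.6%). The C/EBP letters TTGCNNAA (9.56%) and the interferon-stimulated response element (2.98%) stood in none of the 6. In Ccl9 one forward and one reverse TATAAA overlap each other. A match is a description of letters and was not tested for function.

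Ccl17 was the only member outside chromosome 11 and the fifth to be called. Its log2 ratios were 2.63, 2.71, 0.92, 3.86 and 1.46 in adenomas, and 3.24, 4.76 and 6.27 as the lowest, median and highest value in disseminated cells. One disseminated sample, replicate 6, lay below adenoma replicate 4, so the groups overlapped. Ccl17 rose by 2.46 on the log2 scale (standard error 0.77, adjusted p = 0.0298). This call was lost when adenoma replicate 3 (0.0875), adenoma replicate 5 (0.0673), disseminated replicate 1 (0.0675) or disseminated replicate 5 (0.0543) was left out, while the calls of the other 4 members held in all 22 alternatives tried. The count of called members was 6 without disseminated replicate 3 or 6, 5 without replicate 4 and 4 without replicate 5. Without disseminated replicates 3, 6, 4 and 5 in turn, 2541, 3251, 3781 and 2143 of 28786 genes were called, against 3015 with all arrays.

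Among the monocyte chemoattractant proteins none was called in the fit over all 4 groups. Ccl12 and Ccl7 did not overlap between the groups, with log2 changes of 2.92 (adjusted p = 0.0512) and 2.11 (adjusted p = 0.197). Ccl2 changed by 1.76 (adjusted p = 0.227), Ccl8 by 1.32 (adjusted p = 0.324), and Ccl5 by 1.58 (adjusted p = 0.295). None of these 5 differences passed the test in that fit. With slide as a fixed block both Ccl12 (adjusted p = 0.0123) and Ccl7 (0.0205) were called, as they were with only adenomas and disseminated cells in the fit (0.0122 and 0.0166) and in an unmoderated equal-variance test (0.0327 and 0.0402), which gave 7 members in place of 5. Over all genes these settings called 3281, 2616 and 1909 of 28786, against 3015 in the fit over all 4 groups. Ccl12 was also called with loess alone (0.0353), with a normexp offset of 0 (0.0449), with dim probes left out (0.0387), with slide as a random block (0.0484) and without disseminated replicate 3 (0.046) or 6 (0.0347). Adenomas and disseminated cells shared slides 1, 4 and 5, and within these 3 slides the disseminated mean was higher on all 3 for 9 members and on 2 of 3 for Ccl8. For Ccl3 the difference within a slide ran from 4.79 to 7.67 and for Ccl6 from 5.36 to 6.43.

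**Figure D2:**
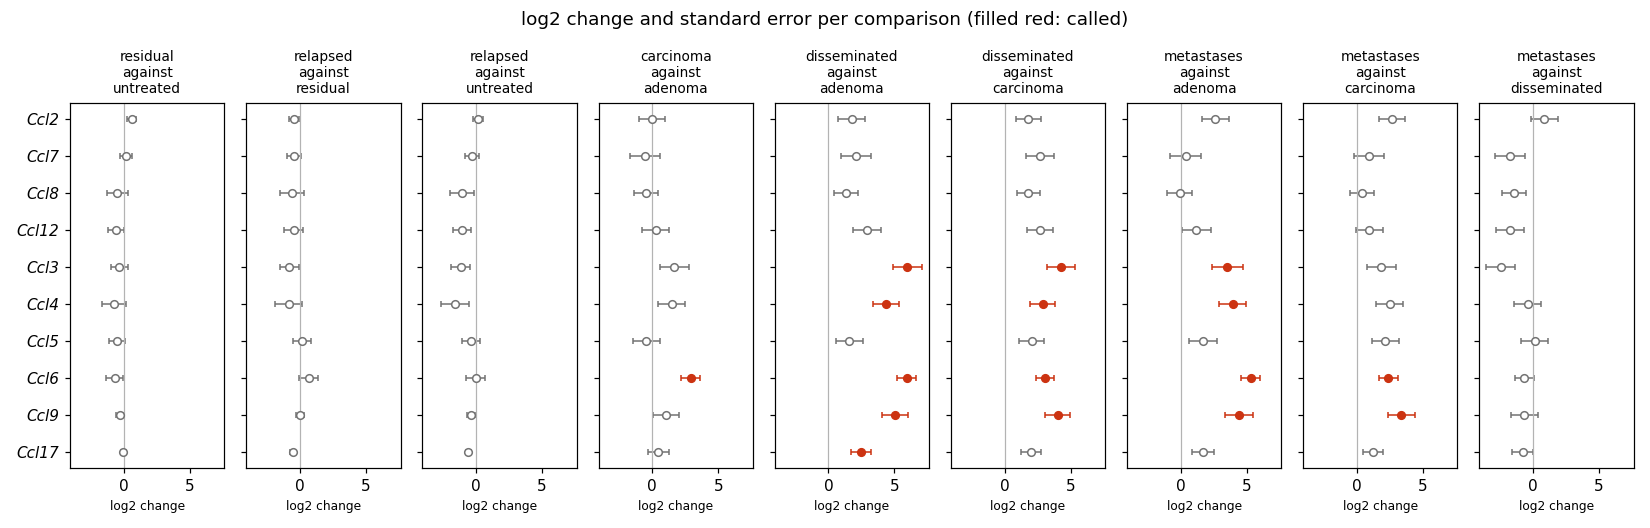
The panels plot, for each of the 9 comparisons, the log2 change of each CC chemokine on the horizontal axis with its standard error, and filled red points are called genes. The 3 chemotherapy panels hold no filled point, and the disseminated against adenoma panel holds 5.

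Carcinomas differed from adenomas at 1 of the 10 members, where 3.3% of all genes were called and 1.15% were called higher. Ccl6 had log2 ratios from 2.43 to 8.16 in the 6 carcinomas, with a median of 4.53, against at most 2.91 in adenomas. Carcinoma replicate 5 overlapped with the adenomas and the other 5 lay above them. Ccl6 rose by 2.90 on the log2 scale (standard error 0.72, adjusted p = 0.0139), and by 2.24 (adjusted p = 0.0150) without carcinoma replicate 6. The call was lost in the unmoderated equal-variance test (adjusted p = 0.0709). Carcinomas and adenomas lay on different slides scanned on different days, so this difference cannot be told apart from slide and scan day, which also holds for disseminated cells against carcinomas, metastases against adenomas and metastases against disseminated cells.

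Replicate 6 was the highest carcinoma for every member, and the carcinoma means of Ccl2 and Ccl7 depended on it. For Ccl4, in contrast, 5 of the 6 carcinomas lay above all adenomas. Ccl2 had a log2 ratio of 4.63 in that sample and -1.74 to -0.78 in the other 5, whereas adenomas ranged from -1.19 to 0.21. Ccl7 had 6.27 in that sample and -1.52 to -0.96 in the other 5, all below the lowest adenoma (-0.26). Without carcinoma replicate 6 the log2 change of Ccl7 in carcinomas was -1.83 (adjusted p = 0.0889) and that of Ccl2 -1.03 (adjusted p = 0.375), against -0.57 and -0.03 with it. Neither was called in either form.

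Between disseminated cells and carcinomas 4 of 10 members were called, all 4 higher, where 11.6% of all genes were called and 5.5% were called higher. The log2 changes were 4.30 for Ccl3 (standard error 1.06, adjusted p = 0.00554), 4.03 for Ccl9 (0.95, adjusted p = 0.00449), 3.05 for Ccl6 (0.69, adjusted p = 0.00315) and 2.88 for Ccl4 (0.95, adjusted p = 0.0301). All 10 means were higher in disseminated cells, and 0 members were free of overlap. Carcinoma replicate 6 lay above the lowest disseminated sample in all 10, and carcinoma replicate 1 did so for Ccl5 and Ccl17. A separation without overlap held for 2.12% of all genes. Without carcinoma replicate 6 all 10 members were called, with log2 changes from 2.38 for Ccl17 (adjusted p = 0.0196) to 5.20 for Ccl3 (adjusted p = 0.000331). In that fit 4165 of 28786 genes were called and 1916 were called higher, against 3330 and 1582 with it. Ccl2 then rose by 2.80 (adjusted p = 0.00449) and Ccl7 by 3.94 (adjusted p = 0.000218). The call of Ccl4 held in 12 of 22 alternatives and was lost, for instance, with the scanner software's processed signals (adjusted p = 0.0622). It was also lost without carcinoma replicate 2 (0.0639), 3 (0.0649), 4 (0.0660) or 5 (0.0719) and without disseminated replicate 1 (0.0594), 3 (0.0680) or 5 (0.0701). Without disseminated replicate 6 the count was 6, with Ccl12 (adjusted p = 0.0354) and Ccl17 (0.0291) added, and it was 4 without replicate 3 or 4 and 3 without replicate 5. Over all genes 3688, 2822, 3935 and 2698 were called without disseminated replicates 6, 3, 4 and 5 in turn, against 3330 with all arrays.

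Between metastases and adenomas 4 of 10 members were called, all 4 higher, where 14.6% of all genes were called and 6.09% were called higher. Ccl6 had log2 ratios of 7.19, 5.66, 7.84, 8.83 and 6.53 in the 5 metastases and changed by 5.29 (standard error 0.75, adjusted p = 6.443e-05). Ccl9 had 2.97, 1.06, 5.33, 6.89 and 1.19 and changed by 4.40 (standard error 1.05, adjusted p = 0.00393). Both genes lay above all adenomas in every metastasis, and replicates 2 and 5 were the lowest.

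Ccl4 had log2 ratios of 8.46, 4.23, 8.19, 9.63 and 6.07 in metastases and changed by 3.92 (standard error 1.04, adjusted p = 0.00817). Ccl3 had 1.78, -2.41, 1.75, 4.18 and 0.16 and changed by 3.53 (standard error 1.16, adjusted p = 0.0272). Metastases replicate 2 was within the adenomas for Ccl3. That call was lost without metastases replicate 1 (adjusted p = 0.0579), 3 (0.0581) or 4 (0.0866). Ccl2 did not pass, at a log2 change of 2.62 (adjusted p = 0.0665), although its log2 ratios of 1.09, 0.44, 2.62, 5.06 and 2.26 in metastases all lay above the adenomas. It was called with only both groups in the fit (adjusted p = 0.0276), with the deposited log2 ratios (0.0295) and without metastases replicate 2 (0.0440). In all, 4 members had every metastasis above every adenoma, which held for 9.78% of all genes. The count of called members was 3 without metastases replicate 4 and 5 without metastases replicate 2. Over all genes these fits called 3741 and 4229 of 28786, against 4191 with all arrays.

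Between metastases and carcinomas 2 of 10 members were called, both higher, where 10.1% of all genes were called and 4.75% were called higher. Ccl9 changed by 3.37 (standard error 1.001, adjusted p = 0.0206) and Ccl6 by 2.39 (standard error 0.72, adjusted p = 0.0220). With slide as a fixed block neither was called, although the log2 changes were about as large, 3.41 for Ccl9 (adjusted p = 0.121) and 2.35 for Ccl6 (0.118). Within the 3 shared slides the difference of Ccl9 ran from -0.58 to 5.51 and that of Ccl6 from 0.37 to 3.22. Slide 6 held metastases replicate 2 beside carcinoma replicates 5 and 6. Without carcinoma replicate 6, 7 members were called, Ccl2 among them with a log2 change of 3.66 (adjusted p = 0.00111). In that fit 3931 of 28786 genes were called and 1881 were called higher, against 2893 and 1366 with it. Without metastases replicate 2 the count was 4, without carcinoma replicate 5 it was 1, and without metastases replicate 3 or 4 it was 0. In the same order these fits called 2815, 2587, 2432 and 2374 of 28786 genes, against 2893 with all arrays.

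Metastases and disseminated cells differed at 0 of 10 members, where 7.12% of all genes were called in limma. 8 of the 10 had a lower mean in metastases. At an unadjusted p below 0.05 there was 1 member, where 26.9% of all genes lay. This was Ccl3, with a log2 change of -2.44 (standard error 1.11, adjusted p = 0.160). The unmoderated equal-variance test called 0 members as well, but it called only 163 of 28786 genes. The count was also 0 without disseminated replicate 3, 4, 5 or 6 and without metastases replicate 4. In the same order these fits called 1357, 1684, 1939, 3166 and 2544 of 28786 genes, against 2049 with all arrays. The order of the group means for Ccl3, Ccl4, Ccl6, Ccl9, Ccl12 and Ccl17 was disseminated cells, metastases, carcinomas and adenomas. For Ccl12 the place of carcinomas above adenomas rested on carcinoma replicate 6 (5.51). The other 5 carcinomas, from -0.85 to 0.50, all lay below the adenoma mean of 0.53. Of the neighbours in this order, the calls were Ccl6 and Ccl9 between metastases and carcinomas and Ccl6 between carcinomas and adenomas, and the other neighbours did not pass the test. For Ccl2 the order was metastases (mean 2.29 ± 1.78, SD, n = 5), disseminated cells (1.43 ± 1.39, SD, n = 6), adenomas (-0.32 ± 0.55, SD, n = 5) and carcinomas (-0.36 ± 2.47, SD, n = 6), and no pair of these was called in the fit over all 4 groups. Metastases against carcinomas was called for Ccl2 with the scanner software's processed signals (adjusted p = 0.0481), with the deposited log2 ratios (0.0342), with dim probes left out (0.0499), and without metastases replicate 2 (0.0452) or carcinoma replicate 6 (0.00111).

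Markers of monocytes and macrophages moved with the chemokines in the progression samples. Of 18 genes of monocytes and macrophages, 16 were called higher in disseminated cells than in adenomas, with a median log2 change of 3.60. Lyz2 (lysozyme) changed by 6.67, Ctss (cathepsin S) by 6.58 and Fcer1g by 5.84. Their count was 12 in disseminated cells against carcinomas, 10 in metastases against adenomas, 3 in metastases against carcinomas and 0 in carcinomas against adenomas. In metastases 2 of them, Fcer1g and Spi1, were lower than in disseminated cells, where 3.69% of all genes were called lower. In arrays of RNA from many cells, fewer cells of a type and less RNA per cell cannot be told apart.

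The mean log2 ratio of the macrophage list was -0.11 to 0.40 in adenomas and 3.03 to 4.74 in disseminated cells. It was 4.43 in carcinoma replicate 6 and -0.46 to 0.57 in the other carcinomas. In metastases it was 3.16, 0.57, 3.90, 4.67 and 0.93. The same samples were high for this list and for the chemokines. The summed signal of the list, in the scanner's units after normalization, was 154500 to 229400 in adenomas, 140700 to 233000 in the first 5 carcinomas, 1607000 in carcinoma replicate 6 and 812900 to 1732000 in disseminated cells. In metastases it was 879200, 436900, 1174000, 1072000 and 327500. The probe of Cd14 had the brightest signal of the list in every group, which does not rank the genes by abundance, and on disseminated arrays all 18 genes were well above background. The part of macrophage RNA in the chemokine changes was not tested.

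**Figure D3:**
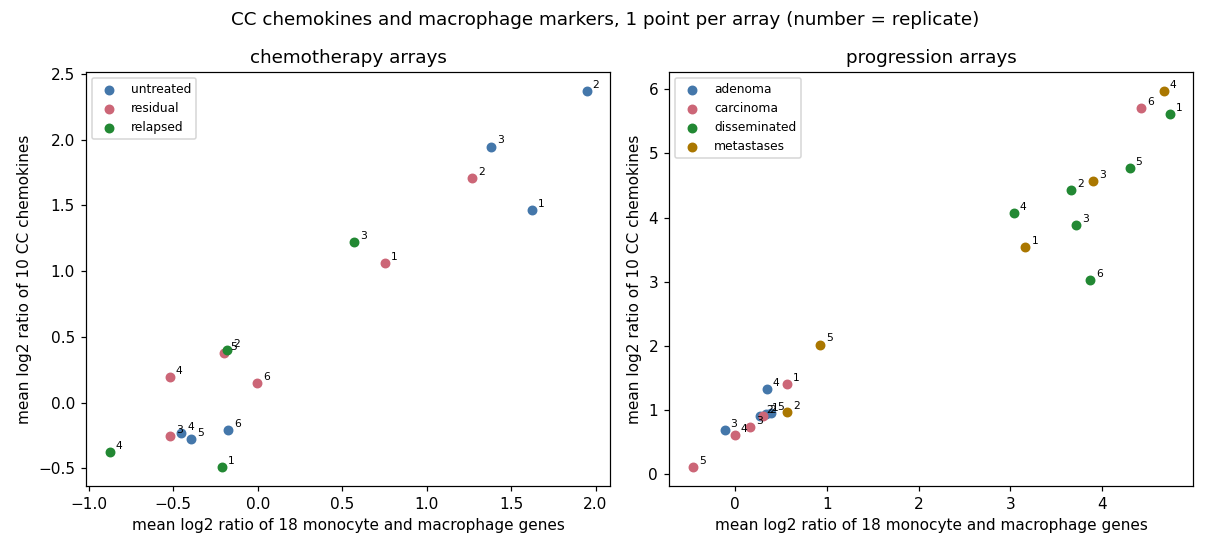
Each point is an array, numbered by replicate, with the mean log2 ratio of 18 monocyte and macrophage genes on the horizontal axis and the mean log2 ratio of the 10 CC chemokines on the vertical axis, for chemotherapy arrays on the left and progression arrays on the right. Carcinoma replicate 6 (4.43 and 5.71) lies within the disseminated samples on the horizontal axis and above them on the vertical axis, and the other 5 carcinomas lie below all disseminated samples on both axes.

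Marker genes of some other cell types moved as well. Of 10 neutrophil genes, 8 were called higher in disseminated cells than in adenomas, among them S100a9, a calcium-binding protein of neutrophils, by 4.68, and 8 were lower in metastases than in disseminated cells. In the latter comparison 3.69% of all genes were called lower. Of 7 alveolar macrophage genes, 7 were higher in disseminated cells than in adenomas, with Chil3 by 8.68, and 6 were higher in metastases. Of 6 lung epithelium genes, 5 were higher in disseminated cells and 3 in metastases than in adenomas, including Sftpc (surfactant protein C) by 3.003 and 3.28. Of 8 endothelial genes, 6 were higher in disseminated cells, with Vwf by 4.17. Of 11 mammary epithelium genes, 1 was lower in disseminated cells than in adenomas, Elf5 by -2.36, and 4 were lower than in carcinomas, including Krt8 by -3.20. In the same comparison of disseminated cells with adenomas, the counts were 3 of 9 dendritic cell genes higher, 2 higher and 1 lower of 15 T and NK cell genes, 1 of 6 B cell genes higher, 0 of 8 genes of mast cells and eosinophils, and 1 of 7 fibroblast genes lower. The T and NK list had a mean log2 ratio of 0.79 in adenomas, 0.14 in carcinomas, 1.03 in disseminated cells and 0.37 in metastases. On that list no carcinoma exceeded 0.27. The lung and alveolar lists gave a mean log2 ratio of 1.66 and 1.68 in carcinoma replicate 6, against 2.65 to 4.92 and 3.87 to 5.56 in disseminated cells, and its macrophage mean of 4.43 lay within the 3.03 to 4.74 of disseminated cells. The part of these cell types in the chemokine results was not tested.

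**Figure D4:**
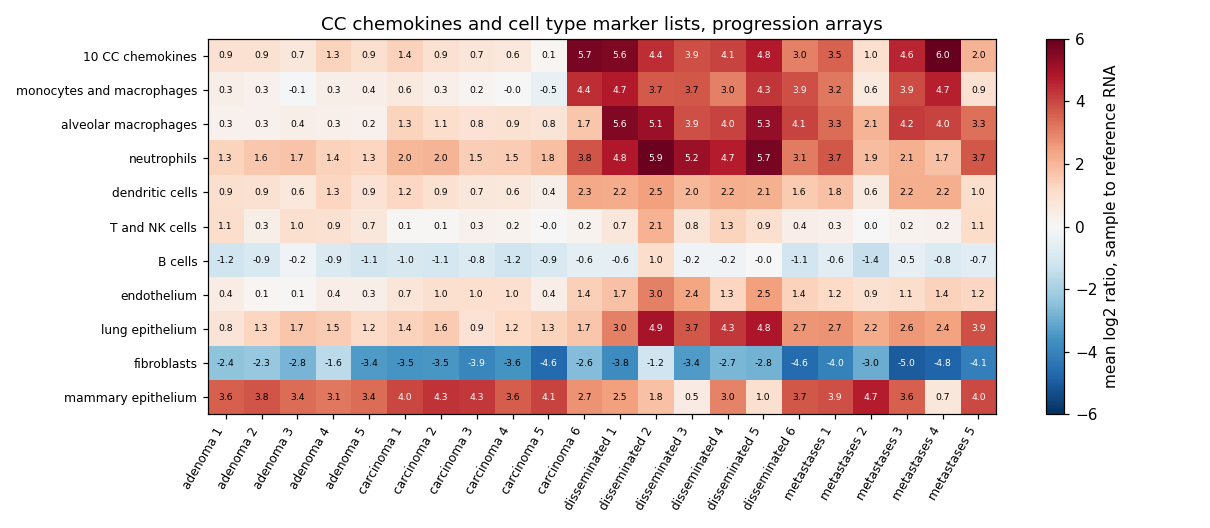
Each cell of the colour map gives the mean log2 ratio of a gene list on one progression array, from blue (below the reference) to red (above it), with the 10 CC chemokines in the top row and 10 marker lists below. The chemokine row and the macrophage row are high in the same arrays, and mammary epithelium is lowest in disseminated replicate 3 (0.51).

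Receptor genes were measured on the same arrays. Among the CC chemokine receptor genes called higher in disseminated cells than in adenomas were Ccr2, the receptor of Ccl2, Ccl7 and Ccl12, by 1.56 (adjusted p = 0.0346), and Ccr1, which was well above background on 0 of 5 adenoma and 4 of 6 disseminated arrays. Ccr2 was well above background on 2 of 5 adenoma and all 6 disseminated arrays. In disseminated cells against carcinomas Ccr1, Ccr2, Ccr6 and Ccr7 were among those called higher, the last of these by 2.54 (adjusted p = 0.0124). Among the calls between metastases and adenomas Ccr10 was lower in metastases (log2 change -1.05, adjusted p = 0.0473). Most of the listed receptors had a higher mean in metastases there, with a median log2 change of 0.37. Ccr7, like Ccr10 a receptor of other CC chemokines, was higher in metastases than in carcinomas (2.11, adjusted p = 0.0476). Of the 4 atypical receptors, which bind chemoattractants without signalling through G proteins, 3 were higher in disseminated cells than in adenomas, among them Ackr1 by 1.91 and Ccrl2 by 1.93.

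Of 9 other CC chemokines measured, 1 was higher in disseminated cells than in adenomas, Ccl24, an eosinophil attractant well above background on 3 of 5 adenoma arrays, by 5.47, and 1 was lower, Ccl27a, an epithelial chemokine, by -2.18. Of 18 inflammatory inducers and NF-kB genes, 7 were higher and 0 lower, including Il1b, a main inducer of chemokine genes, by 4.03, and Tnf by 2.79. The same list had 7 higher in disseminated cells than in carcinomas, 6 higher and 1 lower in metastases than in adenomas, and 4 higher in metastases than in carcinomas.

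In the chemotherapy experiment none of the 10 members was called in limma. Between residual and untreated tumors 0 of 10 were called, where 0.0938% of all genes were called. The count was 0 of 10 in relapsed against residual tumors, where 0.212% of all genes were called, and 0 of 10 in relapsed against untreated tumors, where 0.0104% were called. At an unadjusted p below 0.05 there were 0, 1 and 1 members in these comparisons, where 9.11%, 7.73% and 7.63% of all genes lay. The counts of called members stayed 0 in every alternative tried, including the unmoderated equal-variance test. That test called 5, 25 and 0 of 28786 genes in the same order of comparisons. The median log2 change of the members was -0.42, -0.48 and -0.50, against medians of 0.00, 0.02 and 0.01 over all genes. These comparisons share groups.

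The spread within groups was wide. Ccl4 had a lowest, median and highest log2 ratio of 0.70, 2.82 and 5.89 in untreated tumors and 0.70, 1.77 and 4.03 in residual tumors, and 0.49, 1.55, 3.14 and 0.11 in the 4 relapsed tumors. In untreated tumors replicates 1, 2 and 3 (4.51, 5.89 and 4.64) lay far above replicates 4, 5 and 6 (0.70, 0.70 and 1.14). The groups overlapped, and the log2 change from untreated to relapsed tumors was -1.61 (standard error 1.03, adjusted p = 0.799).

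Ccl12 had 1.80, 2.63 and 1.37 in untreated replicates 1 to 3 and -0.85, -0.28 and -0.61 in replicates 4 to 6, and its log2 change to relapsed tumors was -1.10 (adjusted p = 0.795). Ccl3 (-1.17, adjusted p = 0.793) and Ccl8 (-1.09, adjusted p = 0.890) showed changes of similar size that did not pass the test either. The same 6 arrays, untreated replicates 1 to 3, residual replicates 1 and 2 and relapsed replicate 3, had the highest chemokine means, between 1.06 and 2.37, and the other 10 lay between -0.49 and 0.40. These 6 arrays also held the highest macrophage list means, from 0.57 to 1.95, against values from -0.88 to just below 0 in the others.

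**Figure D5:**
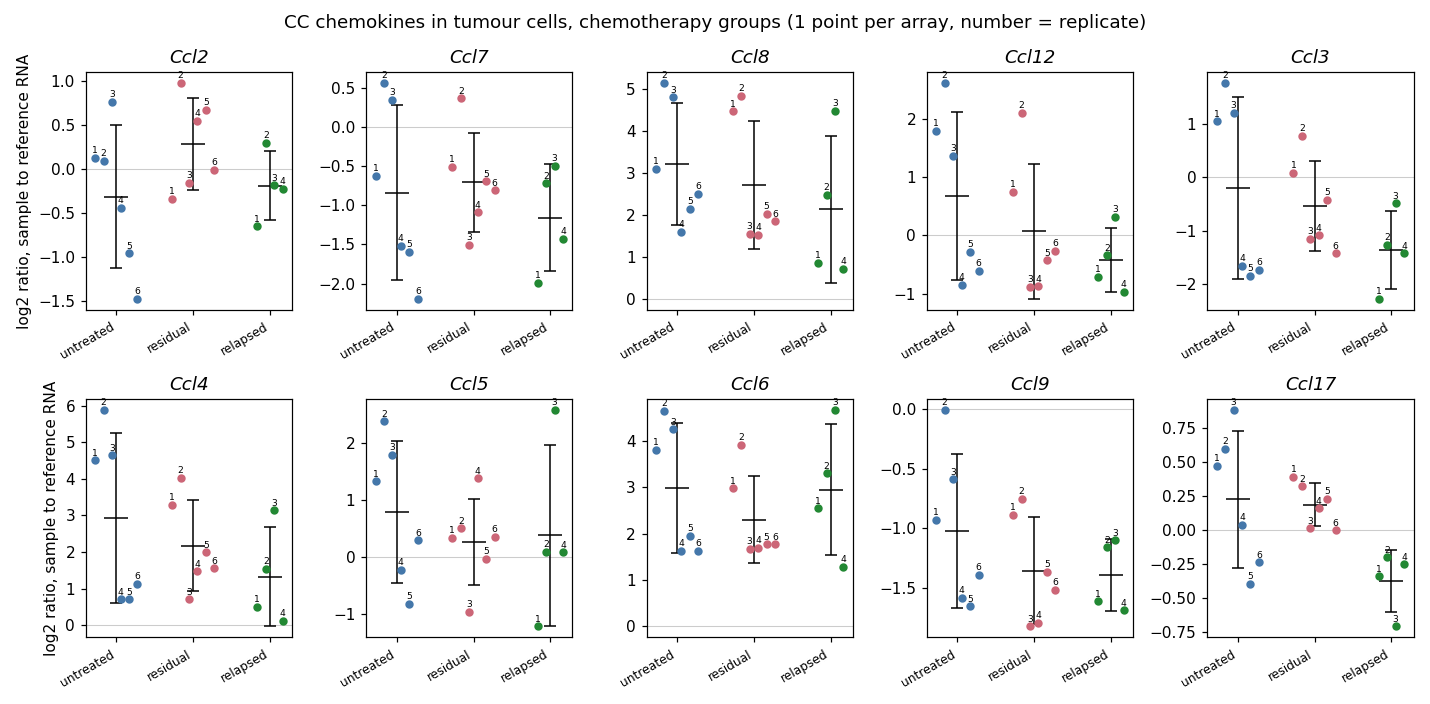
The panels plot the log2 ratio of sample to reference RNA on the vertical axis, with its own range in each panel, for each CC chemokine in untreated, residual and relapsed tumors. Points are arrays numbered by replicate, and bars are the mean and SD. In all 10 panels untreated replicates 1 to 3 lie above untreated replicates 4 to 6, and untreated tumors overlap with both treated groups.

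The summed signal of the macrophage list was 164800, 244600 and 177500 in untreated replicates 1 to 3 and 64510, 48400 and 68530 in replicates 4 to 6. It was 46460 to 203700 in residual and 42770 to 100600 in relapsed tumors. 0 of its 18 genes were called in each of the 3 comparisons, with median changes of -0.67 in residual against untreated, -0.27 in relapsed against residual and -0.89 in relapsed against untreated tumors. Slide 1 held untreated replicate 1 and residual replicates 1 and 2, and slide 2 held untreated replicates 2 to 5, both high and low ones. Mammary epithelium markers gave means of 4.05 to 4.71 on all 16 arrays. The part of macrophage RNA in the spread of the chemokines was not tested.

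Ccl17 came closest to a difference. Its log2 ratios were -0.34, -0.20, -0.70 and -0.25 in the 4 relapsed tumors. They were -0.39, 0.25 and 0.88 as the lowest, median and highest value in untreated tumors and 0.00, 0.19 and 0.39 in residual tumors. All relapsed tumors lay below all residual tumors, which held for 0.98% of all genes, while untreated and relapsed tumors overlapped. The log2 change was -0.56 (standard error 0.21, adjusted p = 0.497) against residual and -0.60 (standard error 0.21, adjusted p = 0.435) against untreated tumors. Ccl17 was not well above background in relapsed replicate 3, its lowest value.

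Ccl2 had a lowest, median and highest log2 ratio of -1.48, -0.17 and 0.77 in untreated tumors, -0.33, 0.27 and 0.98 in residual tumors, and values of -0.65, 0.30, -0.18 and -0.22 in relapsed tumors. Its mean was highest in residual tumors, and the change from untreated tumors of 0.60 (standard error 0.33, adjusted p = 0.629) did not pass the test. Ccl6 had 2.55, 3.30, 4.67 and 1.28 in relapsed tumors, among which replicate 3 was highest, as it was for Ccl4, Ccl5, Ccl7, Ccl8, Ccl12, Ccl9 and Ccl3. Within slide 3, which held untreated replicate 6 and relapsed replicates 3 and 4, 8 of 10 members were higher in the relapsed tumors, whereas 1 of 10 was higher over all slides.

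Across genes the pattern of each member was compared with all genes well above background on at least 0.5 of the arrays, as Pearson's r over the arrays of an experiment, which share processing and the reference RNA. Over the 16 chemotherapy arrays the closest gene to Ccl3 was Il1b (r = 0.976), to Ccl4 Fcer1g (0.987), to Ccl12 Nrros (0.982), to Ccl9 Rgl1 (0.966), to Ccl6 Nog (0.960), to Ccl8 Clec10a (0.948), to Ccl7 Dok2 (0.935), to Ccl17 Gdap10 (0.927), to Ccl5 Col3a1 (0.926) and to Ccl2 an unnamed transcript (0.881). Over the 22 progression arrays the closest gene to Ccl3 was Clec4d (r = 0.974), to Ccl4 Bcl2a1b (0.971), to Ccl6 Fabp4 (0.952), to Ccl9 Mpp1 (0.983), to Ccl12 Rgs10 (0.971), to Ccl7 Tmem106a (0.949), to Ccl5 Oasl1 (0.941), to Ccl17 St8sia4 (0.906), to Ccl2 Cerk (0.899) and to Ccl8 Cst7 (0.874). Ccl12 was the second closest gene to Ccl7 (0.935), its near neighbour on chromosome 11, and Ccl7 the third closest to Ccl8 (0.837). Among the members themselves the most alike were Ccl3 and Ccl4, with r = 0.9631 over the chemotherapy and 0.9575 over the progression arrays.

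The second probes of Ccl5 and Ccl7 changed in the same direction as the brighter probes in every comparison, but not always by the same amount. In metastases against disseminated cells the second probe of Ccl5 changed by 0.62 and the brighter probe by 0.12. The second probe of Ccl7 changed by 2.86 in disseminated cells against carcinomas (adjusted p = 0.0251) where the brighter probe changed by 2.68 (adjusted p = 0.0750 when probes were fitted singly), so the 2 probes fell on different sides of the threshold. In the same comparison the second probe of Ccl5 changed by 1.64 where the brighter probe changed by 2.04.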

How the data were processed

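The 38 two-colour arrays were read from the scanner files deposited per sample. Per the labels and file headers, the authors scanned Agilent arrays designed on mm7 and extracted spots with Feature Extraction 10.7, giving intensity values in the red (Cy5, sample) and green (Cy3, reference) channels. The deposited value table, used only as an alternative, holds the authors' log2 ratios. The labels name an AllPrep kit and the methods RNeasy Micro. Progression RNA had an additional round of amplification, so the experiments were fitted separately.

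Flagged spots (0.435%) and control spots were left out. Mean signals were corrected by normexp with an offset of 50, loess-normalized within arrays and quantile-normalized between arrays of an experiment (R 4.3.3, limma 3.58.1). Replicate spots were averaged per probe. A gene was represented by its brightest probe. Group means were compared with limma's moderated test over 28786 genes with Benjamini-Hochberg adjustment. Genes were called at an adjusted p below 0.05 and at least 2-fold. Alternatives covered background correction, normalization, dim probes, groups in the fit, slide and replicate blocks, an unmoderated equal-variance test (legends of the study name t-tests without stating their form) and leaving out each array. The tests were tested on simulated data.

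The members and gene lists were chosen with earlier results of these data known. Named genes were all 10 members and, per list and comparison, up to 3 called genes with the largest change in each direction. Some receptor results are not reported here. Slides and scan days were taken from the files. Without a count of molecules, the number of arrays limits the precision. 0 columns of per-sample values were left unmapped.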

Additional observations from a re-analysis of the deposited data

Results flagged for a closer look

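Of 70 groups of member values with 4 to 10 arrays, 9 held a value far from the rest of its group by Dixon's test, where chance gives about 1 in 20 groups. Of these, 6 were the high values of carcinoma replicate 6, with log2 ratios of 4.63 for Ccl2, 9.24 for Ccl4, 3.49 for Ccl5, 6.27 for Ccl7, 4.56 for Ccl9 and 5.51 for Ccl12. The same array had a macrophage list mean of 4.43, and its part in these values was not tested. The other 3 were Ccl7 in adenoma replicate 3 (-0.26), Ccl12 in adenoma replicate 2 (-0.43) and Ccl6 in disseminated replicate 1 (8.67). In adenomas Ccl7 was otherwise between 0.74 and 0.83, and in disseminated cells Ccl6 was otherwise between 7.47 and 7.89.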

How the results depend on the processing

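The count of called members was 0 in the 3 chemotherapy comparisons and in metastases against disseminated cells under all alternatives tried. Of 16 called gene and comparison pairs, 10 stayed called under all alternatives tried. For disseminated cells against adenomas the count was 7 in place of 5 with slide as a fixed block, with only both groups in the fit and with the unmoderated equal-variance test, where Ccl7 and Ccl12 were added. Over all genes these settings called 3281, 2616 and 1909 of 28786 in place of 3015. With loess alone, disseminated cells against carcinomas gave 7 members in place of 4, where 3301 of 28786 genes were called in place of 3330. For metastases against carcinomas the count was 0 in place of 2 with slide as a fixed block, with only both groups in the fit and with the unmoderated equal-variance test. There 2898, 2820 and 2580 of 28786 genes were called in place of 2893. The log2 changes stayed about as large, at 2.35 to 2.39 for Ccl6 and 3.37 to 3.41 for Ccl9. For carcinomas against adenomas the count was 0 in place of 1 with the unmoderated equal-variance test, where 931 of 28786 genes were called in place of 949. The cause was not tested. Leaving out 1 array at a time gave 1 to 1 members for carcinomas against adenomas, 4 to 6 for disseminated cells and 3 to 5 for metastases against adenomas, 3 to 10 for disseminated cells and 0 to 7 for metastases against carcinomas. In that order these fits called 663 to 994, 2143 to 3781, 3741 to 4571, 2698 to 4165 and 2374 to 3931 of 28786 genes. Of 90 pairs, 27 changed sign under at least 1 alternative, and 0 of these were called. Among them, relapsed against untreated tumors with slide as a fixed block gave log2 changes of 0.19 for Ccl3 and 0.51 for Ccl8. Correlations of same-numbered deviations ran from -0.41 to 0.42. Different-numbered samples were not set beside them, so they do not settle whether replicate numbers pair the samples. With the replicate block the count was 4 in place of 5 for disseminated cells against adenomas, where Ccl17 was lost (adjusted p = 0.0536), and 3 in place of 2 for metastases against carcinomas, where Ccl2 was added (adjusted p = 0.0315). Of 28786 genes, that setting called 2388 in place of 3015 and 3464 in place of 2893 in these comparisons. Ratios to 1 reference without dye swap leave dye effects in each level.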
